A study of Danio rerio with 10 samples.

Results

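The genes described here mark the zebrafish pronephros and its podocytes: wt1a, nphs1, pax2a, hnf1ba, hnf1bb, jag2b, cdh17, slc20a1a and slc12a3. They were taken by symbol from a table of 32266 gene IDs, and all 9 of 9 were present and passed the filter on low counts, which kept 20802 genes. Each RNA-seq library was made from 10 pooled zebrafish embryos, taken whole at 33 hours post fertilization (hpf). The 5 double mutant libraries came from embryos that were homozygous mutant for both rbpms2a and rbpms2b, the zebrafish genes for the RNA-binding protein Rbpms2. The 5 control libraries came from their siblings. The mutants were picked out by eye before pooling. The controls carry the genotype label wt, but genotypes of single siblings were not used here, so control levels are levels of siblings rather than of known wild types. Libraries in both groups carry the numbers 1, 2, 3, 4 and 6 and are called mutant 1, control 1 and so on. The comparison asks which genes differ between double mutants and control siblings at 33 hpf.

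The zebrafish pronephros is the kidney of the embryo and larva. It is a pair of nephrons whose tubules run from a glomerulus at the midline to the cloaca. Podocytes of the glomerulus form the filter through their slit diaphragms, and the tubule behind them is divided into proximal and distal segments that each carry their own solute transporters. Some tubule cells bear many cilia that drive the fluid along, and in zebrafish Notch signals set the balance between those cells and transporting cells. Several of the regulators also act outside the kidney: pax2a in the midbrain-hindbrain boundary, optic stalk and otic vesicle, and hnf1ba and hnf1bb in the hindbrain and gut endoderm. Since whole embryos were sequenced, fewer cells of a type and less RNA per cell cannot be told apart.

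Total counts were 29142310 to 35155830 per mutant library and 21512374 to 35990897 per control library, with control 6 the shallowest. Of the targeted genes, rbpms2a was at 2.42 to 3.91 CPM in mutants and 4.25 to 7.05 CPM in controls (CPM, counts in 1000000 after scaling between libraries). Its log2 fold change was -0.73 (SE 0.171, unadjusted edgeR p 0.00103, adjusted p 1.00). With the replicate number as a block, the adjusted edgeR p of rbpms2a was 0.00741, and without pair 1 in that fit it was 0.0693. Rbpms2b was at 11.98 to 22.2 CPM in mutants and 10.3 to 18.3 CPM in controls, a log2 fold change of 0.13 (SE 0.211, unadjusted edgeR p 0.556). Its direction turned to -0.041 without mutant 4, which leaves control 4 without its pair. The mutant was above its control in 5 of 5 pairs, as 10.6% of all tested genes were in one direction. In the blocked fit rbpms2b had a log2 fold change of 0.12 (unadjusted edgeR p 0.0995, adjusted p 0.569). Leaving out any pair from that fit gave 0.067 to 0.146. The deposited table does not show the mutated bases, and the RNA level of a mutated gene alone does not check the labels.

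None of the pronephros and podocyte genes differed between double mutants and control siblings past the adjusted threshold of 0.05. In edgeR's quasi-likelihood test, 0 of 9 passed, beside 0.00481% of all tested genes (1 of 20802). With the replicate number as a block, 0 of 9 passed as well, beside 0.255% of all tested genes (53 of 20802). DESeq2 and limma-trend also called 0 of the 9. At an unadjusted p under 0.05 the number was 0 of 9 without the block, beside 1.95% of all genes (1.3% higher and 0.654% lower in mutants). With the block it was 1 of 9 (cdh17, higher), beside 10.5% of all genes (5.67% higher and 4.84% lower). The fitted values were higher in mutants for 5 genes and lower for 4. The median absolute log2 fold change of the 9 was 0.05, and over all tested genes it was 0.07. CPM ranges of mutants and controls overlapped for all 9 genes, and 0.466% of all tested genes had ranges without overlap.

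The widest 95% intervals of the fold changes ran from -0.46 (slc20a1a) to 0.44 (nphs1) on the log2 scale. In each of the 9 genes the interval therefore left out a change of 1 log2 unit in either direction, at the depth and spread of these libraries. This holds for the level in whole embryos, and changes within the pronephros alone were not measured. In percent, the interval of slc20a1a allowed a change of -27.4% to 34.5% in mutants over controls, and that of hnf1ba -8.88% to 13.0%. These intervals come from the fit without the block. With the replicate number as a block they were narrower for slc20a1a (-13.9% to 13.1% in mutants over controls) and for hnf1ba (-7.66% to 11.5%). The blocked interval of cdh17, from 2.19% to 14.98% higher in mutants, left out 0, and those of the other 8 genes included it. Differences within these intervals were not resolved at this depth and spread.

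Levels per gene length were read from the authors' FPKM values (fragments per kilobase of gene and per 1000000 fragments), which allow comparison between genes. Cdh17, a cadherin gene expressed along the pronephric tubule and duct, stood highest at 26.2 ± 1.73 FPKM in mutants and 23.9 ± 1.20 FPKM in controls (SD, n = 5 each). Its lowest library, at 22.2 FPKM, lay above the highest library of the next gene, pax2a, at 17.6 FPKM. Pax2a and jag2b came next with ranges that overlapped, at 12.2 to 17.6 FPKM and 13.0 to 16.0 FPKM over all 10 libraries. Then came slc12a3 at 4.59 to 7.25 FPKM, slc20a1a at 2.82 to 5.56 FPKM and hnf1ba at 3.72 to 4.46 FPKM, each overlapping its neighbour in this order.

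The lowest levels were those of wt1a, hnf1bb and nphs1. Wt1a lay between 2.11 and 2.86 FPKM and hnf1bb between 1.79 and 2.63 FPKM, and these ranges overlapped. Nphs1 lay apart below them at 0.55 to 1.00 FPKM. Of all tested genes, 13.6% had a lower mean FPKM than nphs1, whereas 84.6% had a lower mean than cdh17. The podocyte genes thus rested on few reads, 88 to 168 counts per library for wt1a and 50 to 120 for nphs1, against 1491 to 3115 for cdh17.

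**Figure D1:**
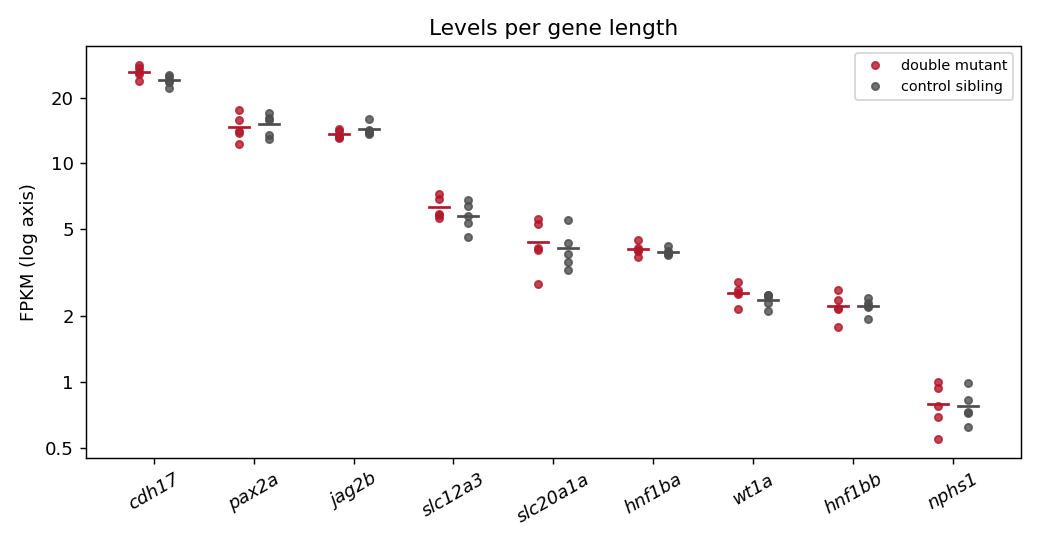
FPKM (log axis) of the 9 genes, ordered by their mean over all libraries; each point is 1 library, lines are group means, and double mutants stand left of control siblings. Cdh17 lies above all other genes and nphs1 below them, from 28.3 FPKM in its highest library for cdh17 to 0.55 FPKM in the lowest for nphs1.

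Among the podocyte genes, wt1a (ENSDARG00000031420) codes for a zinc finger transcription factor needed for podocyte differentiation. It was at 4.15, 3.63, 4.22, 4.80 and 4.48 CPM in mutants 1, 2, 3, 4 and 6, and at 3.51, 3.85, 4.16, 4.29 and 4.29 CPM in the controls of the same numbers. In 4 of 5 pairs the mutant lay above its control, pair 2 being the exception, and the groups overlapped. The log2 fold change of wt1a was 0.08 (SE 0.117, unadjusted edgeR p 0.483), and an exact two-sided permutation test on log2 CPM gave p = 0.389. Adjusted p-values of all 9 genes were 1.00 in the edgeR fit without the block.

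Nphs1 (ENSDARG00000060758) codes for nephrin, the adhesion protein of the slit diaphragm. Its level was 2.31, 3.19, 2.58, 1.74 and 3.13 CPM in mutants 1, 2, 3, 4 and 6, and 3.29, 2.66, 2.29, 2.06 and 2.44 CPM in controls of the same numbers. Number 4 held the lowest library of both groups, and the pairs went in both directions, from -0.51 log2 units in pair 1 to 0.36 in pair 6. The log2 fold change of nphs1 was 0.02 (SE 0.193, unadjusted edgeR p 0.926), with an exact permutation p of 0.968. With the replicate block it was -0.00032, so no direction can be given.

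Of the transcription factor genes, pax2a (ENSDARG00000028148) codes for a paired-box factor of the intermediate mesoderm that gives rise to the kidney. Pax2a was at 38.9, 34.7, 39.5, 49.3 and 44.3 CPM in mutants 1, 2, 3, 4 and 6, and at 43.8, 37.4, 35.0, 48.9 and 48.7 CPM in the controls. Numbers 4 and 6 were the highest libraries of both groups, and mutants were lower in 3 of 5 pairs. Its fitted log2 fold change was -0.05 (SE 0.116, unadjusted edgeR p 0.691, exact permutation p 0.794). Its direction turned without mutant 2, to 0.0014. In the blocked fit it stayed negative whichever pair was left out, from -0.016 (pair 1) to -0.10 (pair 3).

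Hnf1ba (ENSDARG00000006615) and hnf1bb (ENSDARG00000022295) code for related homeobox transcription factors that in zebrafish are required for the segments of the tubule. Hnf1ba was at 15.4, 15.9, 16.1, 17.7 and 14.9 CPM in mutants 1, 2, 3, 4 and 6, and at 16.5, 15.7, 15.1, 15.7 and 15.9 CPM in controls. Its log2 fold change was 0.02 (SE 0.0714, unadjusted edgeR p 0.775, exact permutation p 0.730), and it turned to -0.018 without mutant 4 and to -0.0044 without control 3. Mutants of hnf1ba spanned the control range on both sides. Hnf1bb was at 4.95, 6.18, 7.76, 5.91 and 6.71 CPM in mutants and at 6.30, 7.04, 6.69, 5.90 and 6.38 CPM in controls of the same order. The mutants held both the lowest and the highest library, and the log2 fold change was -0.04 (SE 0.123, unadjusted edgeR p 0.764, exact permutation p 0.706), turning to 0.034 without mutant 1. Per gene length, hnf1ba exceeded hnf1bb in every library, by 1.84 ± 0.245 times in mutants and 1.79 ± 0.167 times in controls (SD, n = 5 each), with overlapping ranges.

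Jag2b (ENSDARG00000021389) codes for a Jagged ligand of the Notch pathway, which in zebrafish limits how many multiciliated cells form in the tubule. It was at 71.9, 67.5, 66.1, 72.5 and 68.0 CPM in mutants 1, 2, 3, 4 and 6, and at 80.1, 71.0, 70.0, 70.2 and 76.0 CPM in controls. The mutant was the lower library in 4 of 5 pairs, and the groups overlapped between 70.0 and 72.5 CPM. For jag2b the log2 fold change was -0.09 (SE 0.0587, unadjusted edgeR p 0.166, exact permutation p 0.103). The 95% interval, in percent of the control level, ran from -13.8% to 2.89%. With the block the edgeR p of jag2b was 0.0648 before adjustment over all genes and 0.504 after it. Expected counts of jag2b were not whole in 2 libraries, and those of hnf1ba in 1, as arises where reads are shared out between loci.

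Cdh17 (ENSDARG00000005112) had the lowest p of the 9. It was at 86.7, 82.2, 84.7, 79.6 and 75.0 CPM in mutants 1, 2, 3, 4 and 6, and at 78.0, 77.5, 73.9, 74.5 and 72.6 CPM in controls of the same numbers. The mutant was above its control in 5 of 5 pairs, and 10.6% of all tested genes had 5 pairs in one direction. The groups overlapped through mutant 6, the 1 mutant library within the control range. The log2 fold change of cdh17 was 0.12 (SE 0.0557, unadjusted edgeR p 0.0574, adjusted p 1.00), or 8.43% higher, with a 95% interval from -0.296% to 17.9%. The exact permutation test, unadjusted and 1 of 9 such tests, gave p = 0.0317, where the smallest p that 5 libraries against 5 allow is 0.00794. The exact sign-flip test over pairs gave p = 0.0625, the smallest value that 5 pairs allow. With the block the unadjusted edgeR p was 0.0103 and the adjusted p over all genes 0.298.

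The transporter genes mark the segments of the tubule. Slc20a1a (ENSDARG00000020114) codes for a sodium-phosphate cotransporter of the proximal tubule. It was at 5.76, 9.53, 7.70, 7.91 and 11.5 CPM in mutants 1, 2, 3, 4 and 6, and at 6.85, 7.29, 7.39, 8.69 and 12.9 CPM in controls. Number 6 was the highest and number 1 the lowest library in both groups. For slc20a1a the log2 fold change was -0.02 (SE 0.205, unadjusted edgeR p 0.934, exact permutation p 0.952). Without control 6, the shallowest library, it was 0.16, but that leaves mutant 6 without its pair. In the blocked fit without pair 6 it was 0.017.

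Slc12a3 (ENSDARG00000013855) codes for the thiazide-sensitive sodium-chloride cotransporter of the last part of the distal tubule. Its level was 20.1, 19.7, 25.4, 23.2 and 21.0 CPM in mutants 1, 2, 3, 4 and 6, and 15.6, 23.8, 22.3, 20.7 and 19.4 CPM in controls. The mutant was higher in 4 of 5 pairs, the exception being pair 2, and the groups overlapped. Slc12a3 had a log2 fold change of 0.10 (SE 0.115, unadjusted edgeR p 0.395, exact permutation p 0.437), and without control 1, its lowest library, it was 0.018. The ratio of slc20a1a to slc12a3 per gene length was 0.704 ± 0.223 in mutants and 0.722 ± 0.196 in controls (SD, n = 5 each). The balance of the proximal to the distal transporter gene thus had overlapping ranges, with an exact permutation p of 0.865.

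**Figure D2:**
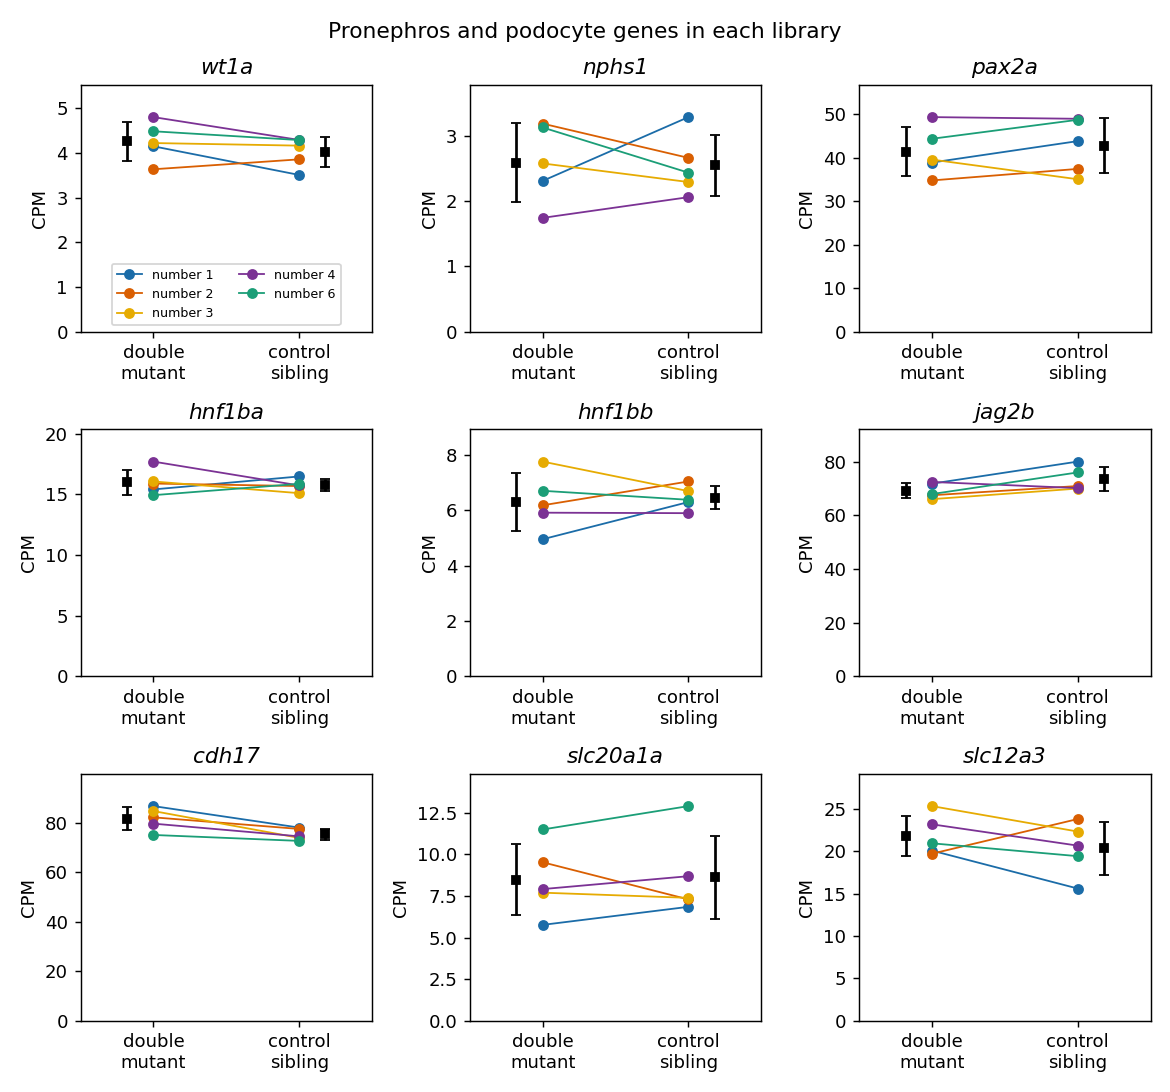
CPM of each gene in each library, with double mutants left and control siblings right; lines join libraries of the same replicate number, and black squares with bars are group means ± SD (n = 5). Cdh17 is higher in the mutant of 5 of 5 pairs, and slc20a1a is highest in number 6 of both groups.

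Much of the spread followed the replicate number. The number accounted for 88.2% of the variance of log2 CPM in slc20a1a and 87.1% in pax2a. It accounted for 40.5% in cdh17 and 37.2% in hnf1ba, where 44.4% would be the average if numbers did not matter. The median of the 9 genes was 61.8%, and that of all tested genes 73.0%. Genotype accounted for 49.2% of the variance in cdh17 and 29.7% in jag2b, and for no more than 9.70% in each of the other genes. If genotype did not matter the average would be 11.1%, so shares of number and genotype have unlike baselines. The median over the 9 was 2.23%, beside 3.69% over all tested genes. What the numbers stand for is not in the labels.

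**Figure D3:**
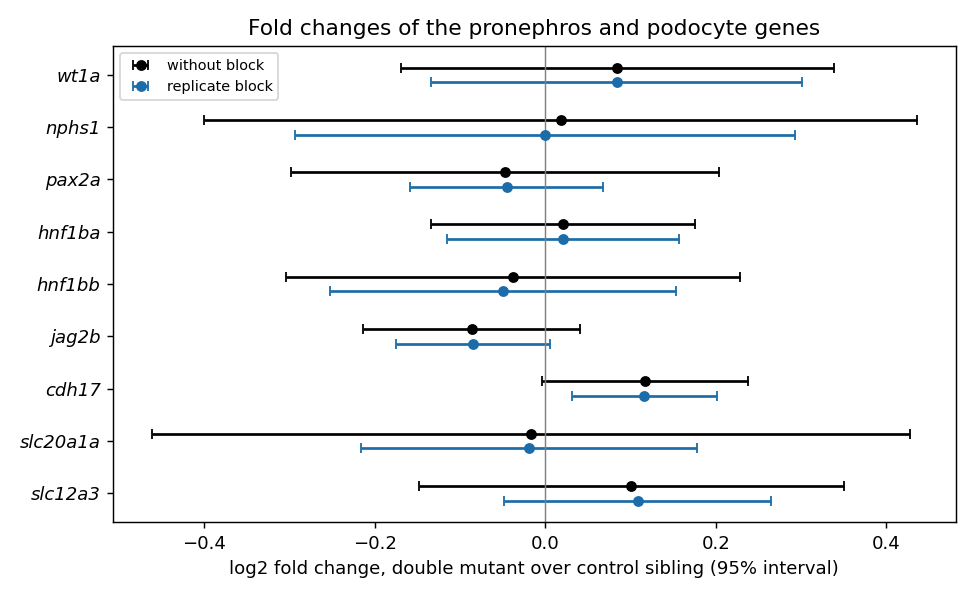
Log2 fold change of double mutants over control siblings with 95% intervals, from edgeR without (black) and with (blue) the replicate number as a block. All 9 intervals without the block include 0 and lie between -0.46 and 0.44, while the blocked interval of cdh17 lies above 0 (0.03 to 0.20).

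Genes whose pattern over the 10 libraries lay nearest to each member were found from standardized log2 CPM profiles, by root mean square distance among all tested genes. The nearest were kif3b to pax2a (distance 0.144), skila to wt1a (0.257), ccdc149a to cdh17 (0.239), fryl to jag2b (0.239) and adm2a to slc20a1a (0.263). For hnf1ba the nearest gene was slc25a36a (distance 0.342), for slc12a3 usp30 (0.360), for hnf1bb btr26 (0.382) and for nphs1 ptcd1 (0.399). The median distance of all tested genes to a member was between 1.33 and 1.36. None of these 9 neighbours was another of the pronephros and podocyte genes, and with 10 libraries that share their replicate numbers, some gene will lie close to any profile.

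Lists of other kidney genes and of tissues that share their markers were examined next, and none of their genes passed the adjusted threshold with or without the block. Over 11 lists with 184 different tested genes, 0 were called by edgeR with or without the block, and DESeq2 and limma-trend called 0 too. At an unadjusted edgeR p under 0.05 there were 5 (2.72%) without the block, beside 1.95% of all tested genes, and 34 (18.5%) with it, beside 10.5%. The podocyte and glomerulus list (25 genes tested) had a median log2 fold change of 0.0008, beside 0.0022 for all tested genes. In it 13 genes were higher and 12 lower. With the block, 1 gene in each direction had an unadjusted edgeR p under 0.05, beside 5.67% (higher) and 4.84% (lower) of all tested genes. Wt1b, the paralogue of wt1a, was at 1.90 ± 0.301 FPKM in mutants and 1.83 ± 0.373 FPKM in controls (SD, n = 5 each), and was chosen after its values were seen. The highest level in the list was that of col4a5, a chain of basement membrane collagen, at 72.2 FPKM in mutants and 71.3 FPKM in controls.

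The lowest p in the podocyte list belonged to mafbb, which codes for a Maf transcription factor. It was between 28.1 and 38.5 CPM in mutants and between 26.6 and 29.2 CPM in controls, so that the ranges overlapped. Its log2 fold change was 0.24 (SE 0.0932, unadjusted edgeR p 0.0250, adjusted p 1.00). In all 10 libraries mafbb had a fractional count, which makes its level uncertain.

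The list of pronephric transcription factors (22 tested) had 8 genes higher and 14 lower and a median of -0.0077. With the block, 2 higher genes and 1 lower gene had an unadjusted edgeR p under 0.05, beside 5.67% (higher) and 4.84% (lower) of all tested genes. Tfap2a stood highest at 65.1 FPKM in mutants and 60.0 FPKM in controls. The lowest p was that of hnf4a, a nuclear receptor gene shared with liver and gut, at 14.1 ± 2.17 CPM in mutants and 11.9 ± 2.51 CPM in controls (SD, n = 5 each). Hnf4a had a log2 fold change of 0.24 (SE 0.151, unadjusted edgeR p 0.135). In the blocked fit its unadjusted edgeR p was 0.00396 and its adjusted p 0.208. The other higher gene of the blocked fit was tfap2a (unadjusted edgeR p 0.0170, adjusted p 0.343). The lower gene was hoxb8a, chosen after its values were seen. Hoxb8a had a log2 fold change of -0.10 without the block, and a blocked unadjusted edgeR p of 0.0408 (adjusted p 0.450). Per gene length, pax2a exceeded pax8, a related gene of the same kidney field, by 5.45 ± 0.461 times in mutants and 5.43 ± 0.468 times in controls (SD, n = 5 each). Pax8 was chosen after its values were seen.

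The proximal tubule list had 15 of 21 matched genes tested, with a median of -0.0033, 7 higher and 8 lower. The other 6 matched genes, which include the sodium-glucose cotransporter genes slc5a1 and slc5a2, did not pass the filter. In the blocked fit 1 higher and 1 lower gene had an unadjusted edgeR p under 0.05, beside 5.67% (higher) and 4.84% (lower) of all tested genes. Aqp1a.1, a water channel gene, stood highest at 51.5 FPKM in mutants and 52.0 FPKM in controls. Pdzk1, a scaffold gene of the brush border, had the lowest p (log2 fold change 0.22, SE 0.110, unadjusted edgeR p 0.0679). It was the higher gene of the blocked fit (unadjusted edgeR p 0.0230, adjusted p 0.378).

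In the distal tubule and duct list, 20 of 24 matched genes were tested, with 13 higher and 7 lower in mutants and a median of 0.04. Atp1b1a, a sodium pump subunit gene, stood highest at 105 FPKM in mutants and 97.6 FPKM in controls. An unadjusted p under 0.05 was seen in 3 genes, all higher in mutants, beside 1.3% of all genes with such a p in that direction: bsnd, kcnj1a.2 and mal2. With the block, 7 of the 20 had such a p, all higher, beside 5.67% of all genes in that direction. These were the same 3 with atp1a1a.2, cldnb, cldnh and grhl2b. Bsnd codes for barttin, a subunit of kidney chloride channels, and had the lowest p of the list. It was at 0.751, 1.02, 0.773, 0.886 and 0.938 CPM in mutants 1, 2, 3, 4 and 6, and at 0.356, 0.555, 0.603, 0.649 and 0.536 CPM in controls. These levels lay below the 1.74 to 3.29 CPM of nphs1, so bsnd rested on few reads. Over the 22 alternatives its log2 fold change ran from 0.346 to 0.780. The groups of bsnd did not overlap, as was so for 0.466% of all tested genes. Its log2 fold change was 0.69 (SE 0.226, unadjusted edgeR p 0.00958). The adjusted edgeR p was 1.00 without the block and 0.295 with it. Kcnj1a.2, a potassium channel gene, and mal2, a membrane traffic gene, were chosen after their values were seen. Their log2 fold changes were 0.51 (SE 0.171) for kcnj1a.2 and 0.34 (SE 0.153) for mal2, and the adjusted edgeR p was 1.00 for both. Kcnj1a.2 and atp1a1a.2 had fractional counts in all 10 libraries, so their levels are uncertain too. Among the other genes of the list, log2 fold changes without the block were -0.07 (slc12a1), -0.02 (ret), -0.13 (ponzr1) and 0.01 (clcnk). Unadjusted edgeR p of these genes ran from 0.463 (ponzr1) to 0.930 (clcnk), and they were picked with those results known.

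Ionocytes of the skin use many of the same transporters. Their marker list (10 of 11 genes tested) had 8 genes higher and 2 lower in mutants, a median log2 fold change of 0.14 and 0 called genes in edgeR. At an unadjusted edgeR p under 0.05 there were 0 without the block and 5 of 10 with it, all higher, beside 5.67% of all genes in that direction. The summed level was 174 to 211 FPKM in mutants and 174 to 200.1 FPKM in controls. The lowest p was that of trpv6, the epithelial calcium channel gene (log2 fold change 0.35, unadjusted edgeR p 0.0658). Trpv6 was at 6.57 to 11.2 CPM in mutants and 5.07 to 7.90 CPM in controls. Its unadjusted edgeR p in the blocked fit was 0.000885 and its adjusted p 0.122. The highest level was that of ca2, a carbonic anhydrase gene, at 77.8 FPKM in mutants and 79.2 FPKM in controls. The part of ionocytes in the values of distal tubule genes was not tested.

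The Notch and multiciliated cell list (28 tested) held 8 genes higher and 20 lower in mutants, with a median of -0.05. No gene of it had an unadjusted p under 0.05 without the block, and 5 did with it, all lower, beside 4.84% of all tested genes. Notch3, a receptor gene, stood highest at 77.2 ± 15.1 FPKM in mutants and 84.7 ± 9.88 FPKM in controls (SD, n = 5 each). Rfx2, a transcription factor gene of ciliated cells, had the lowest p (log2 fold change -0.12, SE 0.0667, unadjusted edgeR p 0.0924). It was at 38.3 to 44.1 CPM in mutants and 40.4 to 46.3 CPM in controls. Its unadjusted edgeR p in the blocked fit was 0.0244 and its adjusted p 0.386. The list of cilia and cyst genes (23 tested) had a median of -0.0011 with 11 higher and 12 lower. In the blocked fit 1 higher and 1 lower gene had an unadjusted edgeR p under 0.05, beside 5.67% (higher) and 4.84% (lower) of all tested genes. Kif3a, a kinesin gene of ciliary transport, stood highest there at 13.4 FPKM in mutants and 13.2 FPKM in controls. Arl13a had the lowest p without the block (log2 fold change 0.54, SE 0.264, unadjusted edgeR p 0.0641). It was also the higher gene of the blocked fit (unadjusted edgeR p 0.0306, adjusted p 0.419). Its levels were 0.626 to 1.02 CPM in mutants and 0.356 to 0.814 CPM in controls, so arl13a rested on few reads. The lower gene of the blocked fit was vhl, chosen after its values were seen. Vhl had a log2 fold change of -0.62 without the block (unadjusted edgeR p 0.120). In the blocked fit it was -0.56 (unadjusted edgeR p 0.000235, adjusted p 0.0638). Levels of vhl were uneven, at 3.83 ± 1.48 FPKM in mutants and 5.80 ± 3.05 FPKM in controls (SD, n = 5 each). Its CPM ranges overlapped, and the mutant was the higher library in 1 of 5 pairs.

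Because pax2a is also made in the midbrain-hindbrain boundary, optic stalk and otic vesicle, markers of these tissues were read beside it. Of 14 tested genes, 4 were higher and 10 lower in mutants, with a median of -0.07 and 0 called genes in edgeR. With the block, 2 higher and 3 lower genes had an unadjusted p under 0.05, beside 5.67% (higher) and 4.84% (lower) of all tested genes. The 2 higher genes were dlx3b and foxi1. The 3 lower genes were pax5, vax1 and eng2a, chosen after their values were seen. Their log2 fold changes without the block were -0.27 (pax5), -0.23 (vax1) and -0.19 (eng2a). In the blocked fit their adjusted edgeR p ran from 0.226 (vax1) to 0.430 (pax5). Dlx3b, an otic placode gene, stood highest at 29.7 FPKM in mutants and 27.1 FPKM in controls. Foxi1, a forkhead gene of the otic placode, had the lowest p (log2 fold change 0.30, SE 0.0974, unadjusted edgeR p 0.00850, adjusted p 1.00). Without the block 1 gene, foxi1 (higher), had an unadjusted p under 0.05, beside 1.3% of all genes in that direction. In the blocked fit its unadjusted edgeR p was 0.00333 and its adjusted p 0.199. Foxi1 was at 6.29 to 8.18 CPM in mutants and 5.60 to 5.82 CPM in controls. These groups did not overlap, as was so for 0.466% of all tested genes. The summed level of the list was 137 to 155 FPKM in mutants and 136 to 155 FPKM in controls. The share of these tissues in the level of pax2a was not tested.

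**Figure D4:**
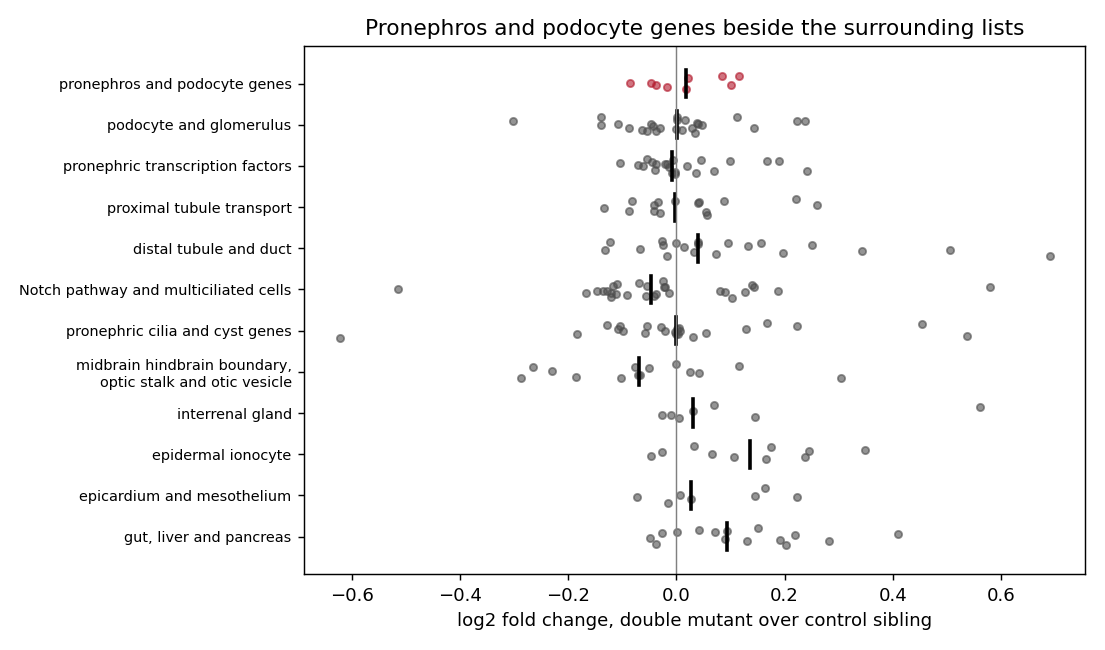
Log2 fold change of double mutants over control siblings for the 9 pronephros and podocyte genes (red) and the tested genes of 11 surrounding lists (grey); each point is 1 gene, and black bars are medians. List medians lie between -0.07 and 0.14, and no point belongs to a called gene.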

How the data were processed

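RNA was captured by polyA selection and libraries were made with a strand-specific chemistry and sequenced in pairs, per the labels' protocols. The authors deposited 1 table with an expected count and a log2(FPKM + 0.1) value per gene and library; 17.8 to 21.6% of a library's 32266 count values are not whole. The submitters' processing notes name STAR 2.5.3a, RSEM 1.3.0, BWA 0.7.12-r1039, bedtools and the build GRCz10, with no role or order. Use of strand in counting is not given in the sources used here, and neither is the annotation release. FPKM was obtained by undoing the deposited log2 values.

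Expected counts were rounded to whole numbers for edgeR 4.0.16, run in R 4.3.3 (filterByExpr, TMM, robust quasi-likelihood test, two-sided, Benjamini-Hochberg adjustment over all 20802 tested genes). The filter kept at least 99.9% of each library's counts. Alternatives were DESeq2 1.42.0, limma-trend (limma 3.58.1) on log2(FPKM + 0.1) and log2(FPKM + 1), RLE scaling, no filter, a replicate block and leaving out libraries or pairs. The edgeR procedure was tested on simulated counts. Exact permutation tests used log2 CPM under every assignment of 5 libraries against 5. They did not keep same-numbered libraries together, so spread between numbers enters their p-values. Exact sign-flip tests over same-numbered pairs gave p from 0.125 (jag2b) to 0.938 (nphs1 and slc20a1a) in the members other than cdh17. No label says that pools came from separate clutches, so p-values measure only the spread between these pools, which may be technical. No library was near a duplicate of another over the 45 possible pairs (chi-square per degree of freedom 5.67 to 74.2).

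No label says that the replicate numbers pair libraries. Deviations from group means correlated at 0.526 to 0.591 between same-numbered libraries in all 5 pairs and at -0.444 to 0.496 between others, so the numbers were read as pairs.

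Members and lists were chosen with earlier results of these data known. Named with values are the 9 genes, the targeted genes and, in each list, called genes, the gene with the lowest p without the block and the one with the highest FPKM; others are said to be chosen after their values were seen. Of 209 entries in the 11 lists, 199 matched an ID of the table, by its symbols or by RefSeq (GRCz12tu) synonyms and gene names. No coordinates are given.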

Additional observations from a re-analysis of the deposited data

Results flagged for a closer look

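The total count and the 9 genes were searched, in each genotype, for 1 library lying far from its other 4. This made 20 groups, of which 1 had such a library, where chance gives about 1. Control 6 had a total count of 21.5 in units of 1000000, against 32.8 to 36.0 in the other controls. Without control 6, which leaves mutant 6 without its pair, the log2 fold changes of the 9 genes lay between -0.08 (jag2b) and 0.16 (slc20a1a). In that edgeR fit 0 of the 9 passed the adjusted threshold.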

How the results depend on the processing

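The pronephros and podocyte genes were called in 0 of 22 alternatives, with a lowest adjusted p of 0.145. Of their 198 log2 fold changes under alternatives, 174 kept their direction. Wt1a, cdh17, slc12a3 and jag2b kept theirs in all 22. The replicate block changed no call among the 9 genes or the lists; it made rbpms2a a call, which was lost without pair 1 (adjusted edgeR p 0.0693). Nphs1 turned to -0.00032 with the replicate block in edgeR and to -0.00072 in DESeq2 with the block. For slc20a1a, limma-trend gave 0.074 (FPKM + 0.1) and 0.064 (FPKM + 1). Leaving out single libraries gave -0.077 to 0.13 for nphs1, -0.15 to 0.16 for slc20a1a, -0.12 to 0.0014 for pax2a, -0.018 to 0.045 for hnf1ba, -0.12 to 0.034 for hnf1bb and -0.041 to 0.23 for rbpms2b. In the blocked fit, nphs1 was at 0.14 and 0.052 without pairs 1 and 4, and at -0.080, -0.043 and -0.082 without pairs 2, 3 and 6. Values in that fit turned for slc20a1a to 0.031, 0.012 and 0.017 without pairs 1, 4 and 6. They also turned for hnf1ba to -0.018 without pair 4 and for hnf1bb to 0.021 without pair 1. None of these values passed in edgeR or limma, and the cause of the turns was not tested.

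Genes called over the whole table numbered 1 in edgeR without the block, 53 with the replicate block, 4 in DESeq2, 90 in DESeq2 with the block, 2 with limma-trend on log2(FPKM + 1) and 0 on log2(FPKM + 0.1), where 486 had an unadjusted p under 0.05. Leaving out a library gave 0 to 3 (0 without mutant 3 or control 2, 3 without control 6), and leaving out a pair from the blocked fit gave 17 without pair 1 or 2, 21 without pair 3, 365 without pair 4 and 79 without pair 6. List genes were called in 1 alternative, the blocked fit without pair 4, and other pairs left out gave 0. There 10 list genes were called (184 were tested with all libraries), beside 365 of 20750 genes over the whole table. The 10 were cldnb, cldnh, dlc, lrp2a, notch1a, notch1b, notch3, tgm2b, trpv6 (adjusted edgeR p 0.0468) and vhl. Nphs1 rests on 50 to 120 counts per library.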

Other observations

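Markers of tissues next to the pronephros gave 0 calls in edgeR with or without the block. The gut, liver and pancreas list (15 of 16 genes tested) had 12 genes higher and 3 lower in double mutants, with a median log2 fold change of 0.09. At an unadjusted edgeR p under 0.05 there were 0 of its genes without the block and 3 with it, all higher, beside 5.67% of all tested genes in that direction. Its summed level was 262 to 386 FPKM in mutants and 236 to 326 FPKM in controls, and fabp2, a fatty acid binding protein gene, stood highest at 153 FPKM in mutants and 130 FPKM in controls. Cldn15la, a claudin gene of the gut, had the lowest p without the block (log2 fold change 0.41, SE 0.258, unadjusted edgeR p 0.138). Its unadjusted edgeR p in the blocked fit was 0.0422 and its adjusted p 0.453. The interrenal gland list (7 of 8 tested) had 5 genes higher and 2 lower and a median of 0.03. Cyp17a1, a steroid synthesis gene, stood highest there at 6.49 FPKM in mutants and 6.12 FPKM in controls. Cyp11a1 had the lowest p (log2 fold change 0.56, unadjusted edgeR p 0.247). It was at 0.104 to 0.701 CPM in mutants and 0.139 to 0.422 CPM in controls, and so rested on few reads. The epicardium and mesothelium list (7 tested), whose tissues also express wt1a, had 5 genes higher and 2 lower and a median of 0.03. Postnb stood highest at 328 FPKM in mutants and 318 FPKM in controls, and tcf21, which podocytes express too, had the lowest p (log2 fold change 0.22, unadjusted edgeR p 0.184).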
